A study of Mus musculus with 26 samples.

Results

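Fabp7, Glul, Gfap, Gja1, Apoe, Cdh19 and Sox10 were described here as markers of satellite glia, the flat glial cells that wrap the cell bodies of sensory neurons in the dorsal root ganglia (DRG). The 7 genes were taken from a list of names and found in both deposited count tables by Ensembl identifier mapped to symbol, 7 of the 55401 genes in the tables. The rule uses no measured value, but the list was drawn up with earlier results of these data known. The question was how these genes moved after a nerve crush, and how much of their level was left in cultured neurons taken from such ganglia.

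Satellite glia share a neural crest origin with Schwann cells, are coupled to each other by gap junctions, take up potassium and glutamate around the neuron, and convert glutamate to glutamine. After a peripheral nerve injury they are known to become reactive, which is usually read from the intermediate filament Gfap. None of the 7 genes is particular to satellite glia: Sox10, Apoe, Cdh19 and Glul are also used by Schwann cells, and Gja1 is also made by fibroblasts and vascular cells.

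The study deleted Ahr, the aryl hydrocarbon receptor, in neurons of adult mice. RNA of lumbar DRG (L4 to L6) was sequenced in 26 libraries that form 10 groups. Mice labelled cKO were Ahr f/f Thy1-CRE(ERT2/EYFP), which carry a tamoxifen-inducible Cre under the neuronal Thy1 promoter, and control mice were Ahr fl/+ (also written f/+) or fl/fl without the Cre. Naive ganglia and ganglia taken 1 day after sciatic nerve crush came from 3 mice per genotype each. These mice, of both genotypes, had 5 daily injections of 100 mg/kg tamoxifen at 28 weeks of age, and tissue was taken or the crush was made 5 weeks later. Sham-operated male mice, 2 per genotype, gave ganglia of the operated (ipsilateral) and of the other (contralateral) side 1 day after surgery. Semi-purified neurons of female mice, 3 libraries per genotype, were collected 24 h after seeding. For sham mice and cultures the labels give neither age nor tamoxifen. Control cultures were all Ahr fl/fl, while naive, crushed and sham controls held both control genotypes. Ganglia are whole tissue, so fewer cells of a type and less RNA per cell cannot be told apart.

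Total counts were 20169388 to 23540375 per library in naive and crushed ganglia, 39306414 to 58751270 in sham ganglia and 25299938 to 88180611 in the cultures. Levels are given as CPM, the count scaled to the library's total with TMM factors over all 26 libraries, and the spread between samples is an SD. Ahr itself was at 18.0 to 26.8 CPM in naive and 34.2 to 38.8 CPM in crushed ganglia of both genotypes, and in none of the 5 genotype comparisons was it lower in the libraries labelled cKO by the test (edgeR adjusted p 0.754 to 1.00), so counts over the whole gene do not check the genotype labels. Sex read from transcripts went against the label in 2 libraries: crushed control replicate 3, labelled male, had 338 Xist counts and 2 counts of Y-linked genes, and crushed cKO replicate 2, labelled female, had 0 and 1641. All 6 naive libraries were female by label and by transcripts. The crushed ganglia were labelled 2 female and 1 male in each genotype, but by transcripts were 3 female in control and 1 female and 2 male in cKO. Sex is thus in part confounded with crush in cKO and with genotype in crushed ganglia. The members' results after crush are given with and without the 2 libraries, and counts over gene lists with them.

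In GRCm38 (GENCODE M21) coordinates Fabp7 lies at chr10:57784881-57788450, Glul at chr1:153899944-153909723, Gja1 at chr10:56377330-56402513, all on the plus strand, and Gfap at chr11:102887336-102900912, Apoe at chr7:19696109-19699188, Cdh19 at chr1:110888326-110977584 and Sox10 at chr15:79154908-79165240, on the minus strand. There is 1 count per gene, so isoforms are not told apart, and whether reads in introns were counted is not given in the sources used here.

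In naive ganglia the levels of the members spanned a wide range. Per kilobase of exon, Apoe, the lipid carrier, was highest at 524 ± 21.8 CPM (SD, n = 6), followed by Glul, glutamine synthetase, at 109 ± 8.79 and by Fabp7, the brain-type fatty acid binding protein, at 104 ± 9.24. Glul and Fabp7 thus differed by less than the spread between libraries. Sox10, the transcription factor of the neural crest glial lineage, stood at 26.4 ± 5.65 CPM per exon kilobase. Cdh19, a cadherin of neural crest glia, was at 15.01 ± 1.83, and Gja1, the gap junction protein connexin 43, at 5.39 ± 1.13. Gfap was lowest at 0.383 ± 0.0946, from 24 to 52 counts per naive library, and so is the least precisely measured member. The deposited FPKM, which divide by the gene span with introns, gave the same order except that Gja1 (2.35) then stood above Cdh19 (0.772), whose span is 20.9 times its exon length. The order of these 2 genes therefore depends on which length fits the counts.

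**Figure D1:**
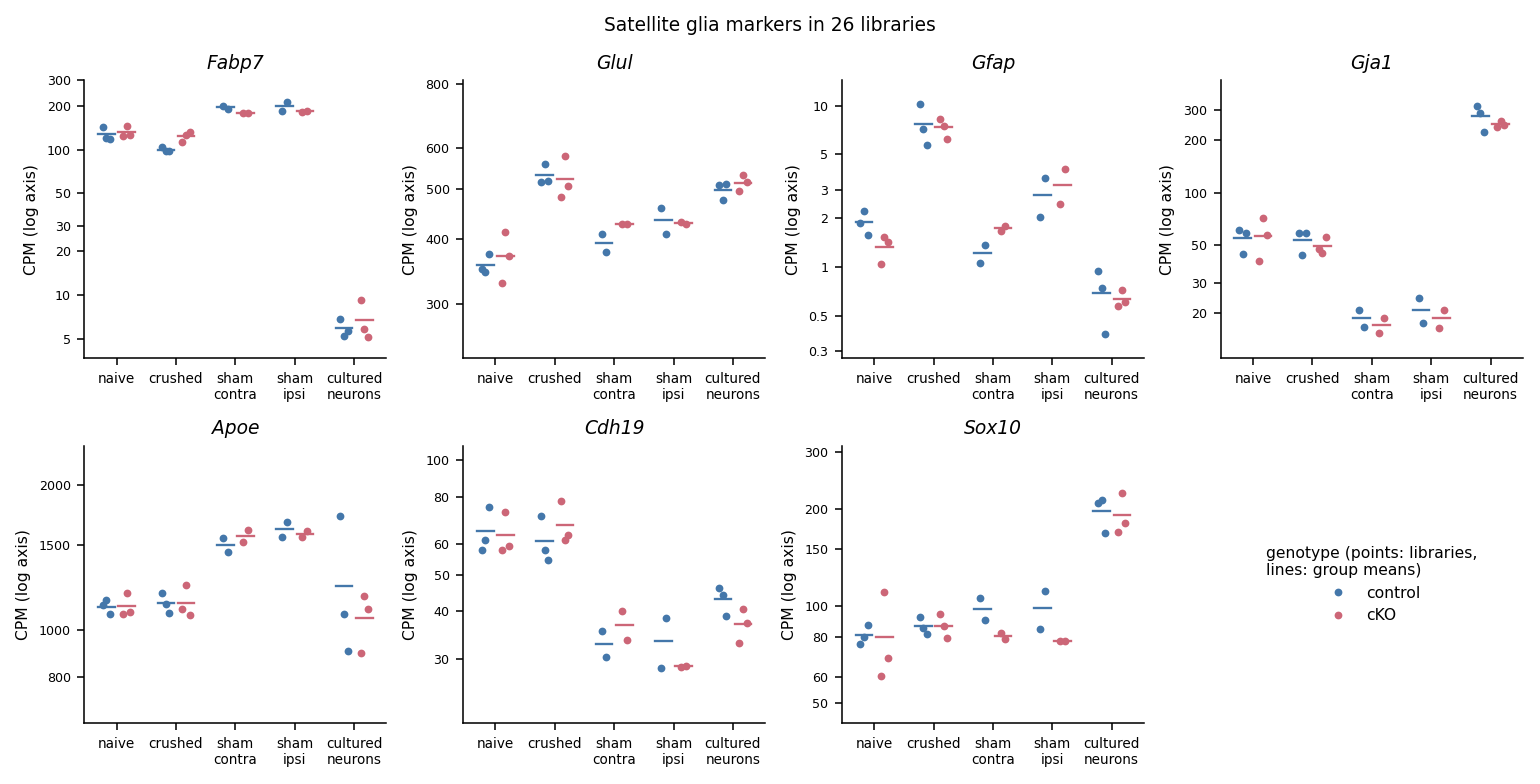
Level of each of the 7 members in every library (points, CPM on a log axis) and the group mean (line), in control and cKO, for naive ganglia, ganglia 1 day after crush, both sides after sham surgery, and cultured semi-purified neurons. Gfap is highest in the 6 crushed ganglia, Fabp7 is under 10 CPM in the 6 cultures, and Gja1 is above 200 CPM only there.

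Gfap, the intermediate filament of astrocytes and reactive satellite glia, rose most after crush. In control ganglia it was at 1.89, 2.21 and 1.58 CPM in the naive and at 10.3, 7.19 and 5.71 CPM in the crushed replicates. In the ganglia labelled cKO it was at 1.05, 1.53 and 1.44 CPM in the naive and at 8.32, 7.49 and 6.20 CPM in the crushed replicates. Every crushed library was above every naive library in both genotypes. The change was 4.07-fold in control (log2 2.03, SE 0.22, edgeR adjusted p = 7.21e-05) and 5.41-fold in cKO (log2 2.44, SE 0.24, adjusted p = 3.57e-05). The difference between these 2 changes was within error (log2 0.41, SE 0.33, edgeR adjusted p = 1.00).

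Glul, which makes glutamine from glutamate and ammonia, rose by less. In control ganglia it was at 349, 345 and 375 CPM in the naive and at 515, 559 and 519 CPM in the crushed replicates, and the groups did not overlap. In the ganglia labelled cKO it was at 329, 412 and 370 CPM in the naive and at 482, 580 and 506 CPM in the crushed replicates, again without overlap. The rise was 1.49-fold in control (log2 0.58, SE 0.08, edgeR adjusted p = 4.28e-04) and to 139.7% of the naive level in cKO (log2 0.48, SE 0.08, adjusted p = 0.0016). With the transcript-based sex of each library in the model, the difference in cKO was 0.37 on the log2 scale and no longer called (edgeR adjusted p = 0.0726); 2 of the 3 crushed cKO libraries are male by transcripts and no naive one is. Overlapping genes (Teddm2 and Mir8114) held at most 2.64% of the Glul counts.

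Fabp7 fell after crush in control ganglia. It was at 144, 120 and 119 CPM in the naive and at 104, 98.1 and 98.2 CPM in the crushed control replicates, which were all below the lowest naive one. The fall was 1.28-fold (log2 -0.35, SE 0.08, edgeR adjusted p = 0.011). In the ganglia labelled cKO the values were 124, 145 and 126 CPM in the naive and 113, 125 and 132 CPM in the crushed replicates, and these groups overlapped (log2 -0.11, SE 0.08, adjusted p = 0.429). The difference between genotypes in this response did not pass (log2 0.24, SE 0.12, edgeR adjusted p = 1.00), so the genotypes are not shown to differ. Without the 2 libraries whose sex went against the label, the log2 differences were 2.19 in control and 2.42 in cKO for Gfap, 0.59 and 0.40 for Glul, and -0.35 in control for Fabp7, and these 5 calls held (edgeR adjusted p up to 0.0408). Fabp7 in cKO was then at -0.12 and did not pass (adjusted p = 0.535).

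The lineage factor, the adhesion molecule, the connexin and the lipid carrier did not pass the test after crush in either genotype. Sox10 was at 60.5 to 110 CPM in the 6 naive and 79.5 to 94.6 CPM in the 6 crushed ganglia, with log2 differences of 0.10 (SE 0.17) in control and 0.11 (SE 0.17) in cKO. Cdh19 was at 58.0 to 75.5 and 54.5 to 77.9 CPM, and Gja1 at 40.1 to 71.6 and 43.4 to 58.0 CPM. Apoe was at 1079 to 1195 CPM in naive and 1077 to 1238 CPM in crushed ganglia, and its log2 differences of 0.02 and 0.01 (SE 0.06 each) were the smallest of the members. Sox10 in cKO rested on 1 library: naive cKO replicate 2 held the highest value, 110 CPM, against 60.5 and 69.0 CPM in the other two, and without it the log2 difference was 0.39 and called (edgeR adjusted p = 0.0148). Without the 2 libraries whose sex went against the label these 4 genes did not pass either, with log2 differences in control and cKO of 0.12 and 0.11 for Sox10, -0.02 and 0.14 for Cdh19, -0.11 and -0.15 for Gja1, and 0.05 and -0.06 for Apoe.

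Counted over the list, 2 of the 7 members rose and 1 fell after crush in control, where 21.6% of the 21261 genes tested were called, and 2 rose and 0 fell in cKO, where 18.6% were called. The median log2 difference of the members was 0.02 in control and 0.08 in cKO, beside -0.02 and -0.00 over all genes tested. At 2-fold or more as well as the adjusted p, 1 of 7 was called in each genotype, Gfap, beside 2.96% and 2.72% of all genes. Averaged over genotypes, 3 of 7 were called against 34.1% of all genes: Gfap (log2 2.23, SE 0.16), Glul (log2 0.53, SE 0.06) and Fabp7 (log2 -0.23, SE 0.06). For the difference between genotypes in the response, edgeR called 0 of 7 members and 0% of all genes at adjusted p under 0.05. At an unadjusted p under 0.05 it had 0 of 7 members, beside 627 of the 21261 genes.

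**Figure D2:**
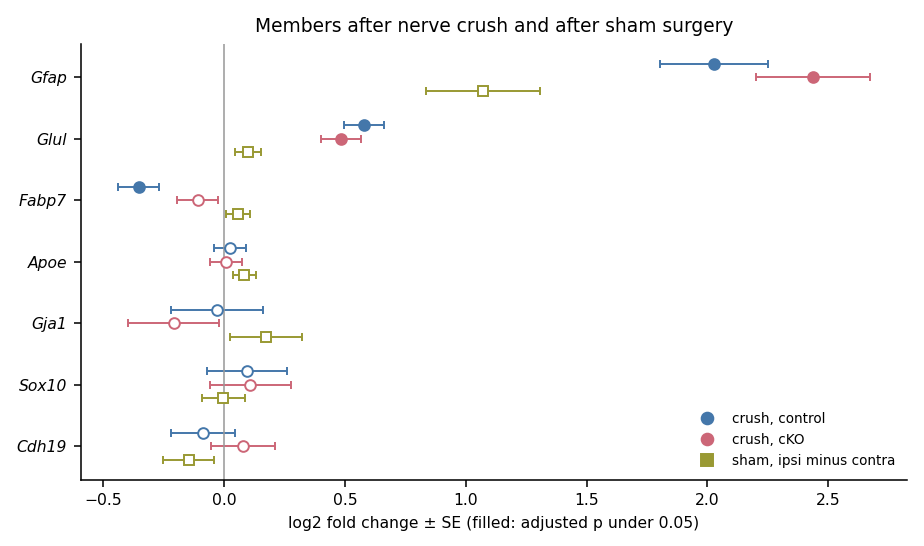
Log2 fold change with its SE of each member after nerve crush in control and in cKO ganglia, and between the ipsilateral and contralateral side after sham surgery; filled symbols passed an adjusted p of 0.05. Gfap and Glul pass to the right of 0 after crush in both genotypes, and no member passes after sham surgery.

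The counts over further gene lists stand beside 21.6% of all genes called in control and 18.6% in cKO. Those averaged over genotypes stand beside 34.1%. Of 12 further genes of reactive glia, 7 rose and 0 fell in each genotype, with a median log2 difference of 0.53 in control and 0.44 in cKO. Among them Cd44, a hyaluronan receptor (log2 1.25 in control, 0.93 in cKO), Serpina3n, a serine protease inhibitor (1.32 and 1.11), and the intermediate filament Vim (0.53 and 0.50) passed in both. Of 15 other satellite glia genes 3 rose in control and 1 in cKO, and 0 fell, shares no higher than over all genes. Lgi4, a secreted ligand of glia, rose in both (log2 0.46 and 0.60), with an overlapping gene, Fxyd3, at 52.8% of its counts, and Kcnj10, the potassium channel Kir4.1, rose in control (log2 0.33, edgeR adjusted p = 0.0322).

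For glutamate and glutamine handling, 5 of 12 genes beside Glul rose and 0 fell in each genotype. The glutamine carrier Slc38a1 had the smallest p in both (log2 0.85 in control, 0.83 in cKO). Among 13 ApoE receptor and lipid transport genes, Apoe included, 3 rose and 0 fell in control and 3 rose and 1 fell in cKO. In control the genes that rose included the lipid exporter Abca1 (log2 1.12) and the ApoE receptor Lrp8 (0.54). In cKO the lipid transporter Abcg1 fell (log2 -0.61), and it also fell averaged over genotypes (-0.45). Apoe did not pass. Among 8 SOX factors, Sox10 included, Sox11 (log2 3.38 in control, 3.17 in cKO) and Sox9 (0.93 and 1.62) rose and 0 fell in each genotype. Averaged over genotypes, Sox8, a close relative of Sox10 with an overlapping gene at 92.2% of its counts, fell (log2 -0.51), and 3 factors rose. Sox10 did not pass. Of the 12 connexins and pannexins, Gja1 included, Panx1 (log2 0.43 in control, 0.27 in cKO) and Gjc1 (0.68 and 0.58) rose and Gjd2 (-1.20 and -1.12) fell, and Panx2 fell averaged over genotypes (-0.23), while Gja1 did not pass. Of 8 classical cadherins, Cdh19 included, Cdh10 (log2 -0.57 in control, -0.69 in cKO) and Cdh11 (-0.34 and -0.47) fell in both genotypes, and Cdh1 rose in control (0.24). Averaged over genotypes, Cdh1 (log2 0.11) and Cdh2 (0.21) rose, while Cdh19 did not pass.

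Marker lists of other cell types were compared over the same libraries. The summed level of 10 macrophage genes was 163 to 263 CPM in naive and 179 to 245 CPM in crushed ganglia, and 0 of 10 passed in either genotype by edgeR. Of these, Csf1r, Itgam and Cx3cr1 are overlapped by other genes (Hmgxb3 at 272%, Gm49368 at 102% and Wdr48 at 41.1% of their counts), so the sum is uncertain. The 9 myelinating Schwann cell genes summed to 3428 to 5658 CPM in naive and 3863 to 5077 CPM in crushed ganglia, again with 0 of 9 called. The 12 neuronal genes summed to 12570 to 14670 and 12530 to 15130 CPM, and 0 rose while 1 fell in control (Isl1, log2 -0.33) and 2 fell in cKO (Isl1, -0.32, and Rbfox3, -0.26). Of 6 endothelial genes, 1 fell in control (Cldn5, log2 -0.74) and 0 in cKO, and of 8 fibroblast and mural cell genes 1 rose in control (Rgs5, log2 0.41) and 0 changed in cKO. Averaged over genotypes, where 34.1% of all genes were called, 2 of these 8 also fell (Lum, log2 -0.42, and Pdgfrb, -0.28). In the same test 2 of 4 proliferation genes fell (Mki67, log2 -1.34, and Cdk1, -0.95), with none of the 4 called within a genotype. Of 6 astrocyte and oligodendrocyte genes of the central nervous system, the oligodendrocyte genes Opalin and Mog were under 1 CPM on average in naive and in crushed ganglia, and Slc1a2, also in the glutamate list, was the 1 gene that rose in control. Averaged over genotypes, Slc1a2 (log2 0.72) and Aldh1l1 (0.26) rose and Aqp4 (-0.20) fell. Non-myelinating Schwann cell genes did move, with 3 of 6 higher in control (Gap43 log2 0.48, Ncam1 0.45, L1cam 0.30), genes that neurons also make, and 1 of 6 higher in cKO. Their part in the changes of Gfap, Glul and Fabp7 was not tested.

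Sham surgery without a crush gave a second view of reactivity. Gfap was at 1.07 CPM in the contralateral and 2.03 CPM in the ipsilateral ganglia of control mouse 1, and at 1.36 and 3.58 CPM in control mouse 2. In the mice labelled cKO it was at 1.68 and 2.45 CPM in mouse 1 and at 1.80 and 4.04 CPM in mouse 2. The ipsilateral side was thus higher in 4 of 4 mice, by 1.46 to 2.62 times. The averaged difference was log2 1.07 (SE 0.24), which did not pass over all genes (edgeR adjusted p = 0.328, and 0.206 with the mouse as a block). DESeq2 (adjusted p = 0.0296) and edgeR without a filter on low counts (0.00205) did call it. Gfap rests here on 56 to 176 counts per library.

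Of the other members, Glul on the ipsilateral side was 1.12 and 1.09 times the contralateral level in the control mice, and 1.01 and 1.00 times it in the cKO mice (log2 0.10, SE 0.05, edgeR adjusted p = 0.77), and Gja1 was higher in 4 of 4 mice by 1.06 to 1.17 times (log2 0.17, SE 0.15, adjusted p = 0.866). Fabp7, Apoe, Cdh19 and Sox10 had mice on either side. By edgeR, 0 of 7 members passed, where 0.00451% of all genes, or 1 gene, passed. At an unadjusted edgeR p under 0.05 stood 1 of 7 members, beside 1675 of the 22160 genes tested. The test of whether the side difference depended on genotype called 0 of 7 members and 0% of all genes. At an unadjusted edgeR p under 0.05 it had 0 of 7 members, beside 904 of 22160 genes. Of the 9 myelinating Schwann cell genes, all had a lower level on the ipsilateral side (log2 -0.47 to -0.16) and 0 passed.

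The crush effect was set against the sham side effect in 1 fit over the 20 ganglion libraries, a comparison added after the values had been seen. Gfap rose 2.25-fold more after crush than between the sham sides (log2 1.17, SE 0.29, edgeR adjusted p = 0.0198), and Glul 1.36-fold more (log2 0.44, SE 0.09, adjusted p = 0.00437). These were 2 of 7 members, where 9.19% of all genes passed. Fabp7 did not pass (log2 -0.28, SE 0.09, adjusted p = 0.0599). The Gfap call was lost without sham control mouse 1 (log2 1.08, adjusted p = 0.0566) or without sham cKO mouse 1 (log2 1.04, adjusted p = 0.0848). The reference of the first effect is naive ganglia and that of the second the other side of operated mice, so the surgery, the side and the table cannot be told apart.

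Promoter sequence of Gfap and Gja1 is shown because these members rose most, Gfap after crush and Gja1 in culture. The RefSeq promoter table (GRCm38.p6, 250 bases before to 50 after each start) held Fabp7, Glul, Gfap, Gja1 and Apoe. It was searched on both strands for TGANTCA (AP-1), TTCNNNGAA (STAT) and ACAANNG with its reverse complement CNNTTGT (SOX), motifs with no overlap between them in these windows. The capitals mark the match, and positions count from the RefSeq start, with -1 the base before it. For Gfap, inside a GENCODE transcript holds only for the 50 bases from the start on, since those before it were not checked.
Gfap, chr11:102897194-102897300, minus strand, from -100, inside a GENCODE transcript of the gene: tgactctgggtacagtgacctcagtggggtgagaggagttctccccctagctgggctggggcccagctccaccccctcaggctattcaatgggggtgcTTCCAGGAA
Gja1, chr10:56377200-56377299, plus strand, from -100: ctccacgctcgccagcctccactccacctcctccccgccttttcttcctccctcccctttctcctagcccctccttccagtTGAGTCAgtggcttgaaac
The Gfap window held 1 STAT match, beginning at -2, and the Gja1 window 1 AP-1 match, beginning at -19. Of all 32851 promoter windows, 8.3% held the STAT letters and 7.81% the AP-1 letters. The only other match among the members was 1 of the SOX letters at -55 of Apoe, which 37.9% of all windows held, and Fabp7 and Glul held none of the 3. A match is a description of letters and no evidence of binding.

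In cultures the members separated into losses, retention and gains. Fabp7 was nearly lost. It was at 6.86, 5.20 and 5.61 CPM in the control and 9.30, 5.85 and 5.17 CPM in the cKO cultures, from 173 to 779 counts per library, against 119 to 145 CPM in naive ganglia. Cultures kept 4.56% of the naive level in control (log2 -4.46, SE 0.21, edgeR adjusted p = 1.01e-09) and 5.17% in cKO (log2 -4.27, SE 0.20, adjusted p = 1.11e-09). Against contralateral sham ganglia, which are in the same deposited table as the cultures and stood at 179 to 200.5 CPM, the fall was 30.1-fold (log2 -4.91, SE 0.15, adjusted p = 1.36e-09).

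Gfap, low in naive ganglia, fell further. It was at 0.952, 0.742 and 0.383 CPM in the control and 0.573, 0.717 and 0.606 CPM in the cKO cultures, all below the lowest naive library at 1.05 CPM. The fall was 2.82-fold in control (log2 -1.49, SE 0.29, edgeR adjusted p = 4.02e-04), 2.11-fold in cKO (log2 -1.08, SE 0.29, adjusted p = 0.00417) and 2.25-fold against contralateral sham ganglia (log2 -1.17, SE 0.22, adjusted p = 6.19e-04). The marker that rose most after crush thus had its lowest levels in the cultured cells.

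Gja1 rose most. It was at 318, 286 and 225 CPM in the control and 240, 258 and 245 CPM in the cKO cultures, against 40.1 to 71.6 CPM in naive and 15.5 to 21.01 CPM in contralateral sham ganglia. No culture overlapped any ganglion. The rise was 5.13-fold in control (log2 2.36, SE 0.19, edgeR adjusted p = 2.01e-07), 4.43-fold in cKO (log2 2.15, SE 0.19, adjusted p = 4.59e-07) and 14.5-fold against contralateral sham ganglia (log2 3.86, SE 0.13, adjusted p = 1.81e-09). The size differed with the reference.

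Sox10 rose too. It was at 208, 213 and 168 CPM in the control and 169, 224 and 180 CPM in the cKO cultures, all above the highest naive library at 110 CPM. The rise was 2.44-fold in control (log2 1.29, SE 0.19, edgeR adjusted p = 4.10e-05), 2.40-fold in cKO (log2 1.26, SE 0.19, adjusted p = 4.97e-05) and 2.17-fold against contralateral sham ganglia (log2 1.12, SE 0.10, adjusted p = 1.94e-06). The glial lineage factor was thus a larger share of the RNA in the semi-purified neurons than in the whole ganglion.

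Glul was kept and slightly higher. It was at 509, 476 and 510 CPM in the control and 496, 533 and 516 CPM in the cKO cultures, above all 6 naive ganglia at 329 to 412 CPM and within the 482 to 580 CPM range of the crushed ganglia except for control replicate 2. The rise against naive was 1.41-fold in control (log2 0.50, SE 0.08, edgeR adjusted p = 6.25e-05) and 1.39-fold in cKO (log2 0.48, SE 0.08, adjusted p = 8.85e-05), and against contralateral sham ganglia 1.23-fold (log2 0.30, SE 0.05, adjusted p = 5.48e-04).

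For Apoe and Cdh19 the call differed with the reference. Apoe was at 1719, 1079 and 904 CPM in the control and 898, 1177 and 1108 CPM in the cKO cultures, and neither genotype passed against naive ganglia (log2 0.15 and -0.08, SE 0.19 each). Against contralateral sham ganglia, at 1452 to 1607 CPM, Apoe fell 1.35-fold (log2 -0.43, SE 0.16, edgeR adjusted p = 0.0343), a call lost in 10 of 15 alternatives (adjusted p up to 0.101). The highest Apoe value, control replicate 1, came from the culture with the lowest total count, and without it the fall was called again (log2 -0.53, adjusted p = 3.37e-04). Cdh19 was at 46.1, 44.1 and 39.0 CPM in the control and 33.0, 40.6 and 37.4 CPM in the cKO cultures. It fell to 66.7% of the naive level in control and to 58.5% in cKO (log2 -0.59 and -0.77, SE 0.12 each, edgeR adjusted p = 5.83e-04 and 5.95e-05), but its log2 difference from contralateral sham ganglia, at 30.4 to 40.1 CPM, was 0.19 (SE 0.09, adjusted p = 0.0726), and it passed in 9 of 15 alternatives.

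Counted over the list, 3 of 7 members rose and 3 fell against naive ganglia in each genotype, where 83.2% of all genes were called in control and 82.1% in cKO. Against contralateral sham ganglia, 3 of 7 rose and 3 fell, where 76.2% were called. The members' share is near that background and is no result about them. At 2-fold or more, 4 of 7 members were called in each genotype against naive ganglia (Fabp7, Gfap, Gja1 and Sox10) beside 50.3% and 48.6% of all genes, and the same 4 against sham ganglia beside 36.5%. The genotypes did not differ in these changes by the test: 0 of 7 members passed, where 0.00451% of all genes, or 1 gene, passed. At an unadjusted edgeR p under 0.05 were 0 of 7 members, beside 1673 of 22185 genes. Naive ganglia and cultures were all female and without surgery, but there the deposited table, the age and tamoxifen (not in the labels of the cultures) and the culture itself cannot be told apart. Contralateral sham ganglia share the table with the cultures, but there the male sex and the surgery of the sham mice and the culture cannot be told apart. In control the Ahr genotype differs as well: cultures were all fl/fl, and both references also held fl/+ (f/+) mice.

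**Figure D3:**
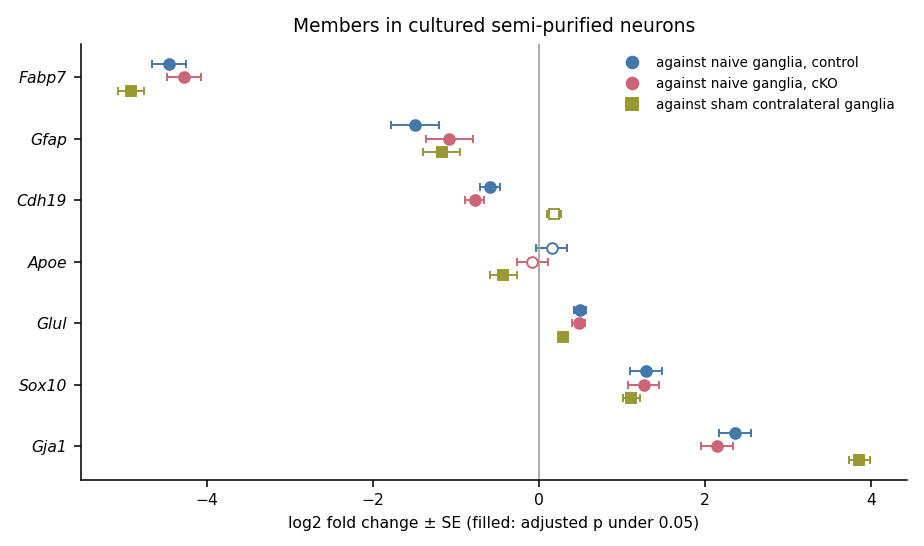
Log2 fold change with its SE of each member in cultured neurons against naive ganglia of the same genotype and against contralateral sham ganglia of the same deposited table; filled symbols passed an adjusted p of 0.05. Fabp7 lies below -4 and Gja1 above 2 with every reference. Cdh19 lies below 0 against naive and above 0 against sham ganglia, and Apoe passes only against sham ganglia.

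The other satellite glia genes moved both ways in culture. Of 15, 10 fell and 3 rose in each genotype against naive ganglia, with a median log2 difference of -1.29 in control and -0.97 in cKO, beside -0.02 and 0.01 over all genes. The share called is near the 83.2% and 82.1% of all genes. Kcnj10 fell from a mean of 132 to 7.35 CPM (log2 -4.05 in control) and Lgi4 from 53.0 to 8.55 CPM (-2.59). Ednrb, the endothelin B receptor (log2 2.18), Foxd3, a neural crest transcription factor (2.57), and Sox2 (1.12) rose, the last with an overlapping transcript, Sox2ot, at 272% of its counts.

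Members could be set beside their relatives. Among the fatty acid binding proteins, Fabp5 (log2 1.22) and Fabp3 (1.79) rose against naive ganglia in control while Fabp7 fell, but against sham ganglia of the same table all 4 of the family fell, Fabp3 by 1.04 and Fabp5 by 0.33 on the log2 scale. Fabp3 is overlapped by a more abundant gene, Zcchc17. Among connexins, Gja4 (log2 2.55) and Gjc1 (2.16) rose with Gja1, and Gjc3, a connexin of myelinating glia, fell from 41.2 to 1.79 CPM (-4.38). Of the glutamate and glutamine genes, Slc38a1 (log2 1.46) and Aldh18a1 (1.70) rose with Glul, and the glutamate transporters Slc1a2 (-1.47) and Slc1a3 (-0.70) fell, the last with a log2 difference of 0.22 that did not pass against sham ganglia. Apod, a lipid carrier of glia and fibroblasts, fell from 459 to 44.1 CPM (-3.62) where Apoe did not pass.

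Markers of other cells stood beside these values, where 83.2% of all genes were called in control and 82.1% in cKO, so that the levels and not the counts of calls describe them. The 9 myelinating Schwann cell genes summed to 3428 to 5658 CPM in naive ganglia and 682 to 816 CPM in cultures, with 8 of 9 lower in each genotype. The 6 endothelial genes summed to 109 to 192 CPM in naive ganglia and 993 to 1487 CPM in cultures, and 6 of 6 rose in each genotype, led by Pecam1 (log2 3.40) and Kdr (3.34) in control. Macrophage genes summed to 163 to 263 and 179 to 211 CPM, but in cultures Cx3cr1, one of the overlapped genes, made up 137 CPM on average, and C1qa, C1qb and Aif1 were under 1 CPM. The neuronal genes, for which the cultures were enriched per the labels, summed to 6393 to 8044 CPM in cultures against 12570 to 14670 CPM in naive ganglia, and 9 of 12 fell in control. The part of endothelial, Schwann and neuronal RNA in the changes of Gja1, Sox10 and the other members was not tested.

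**Figure D4:**
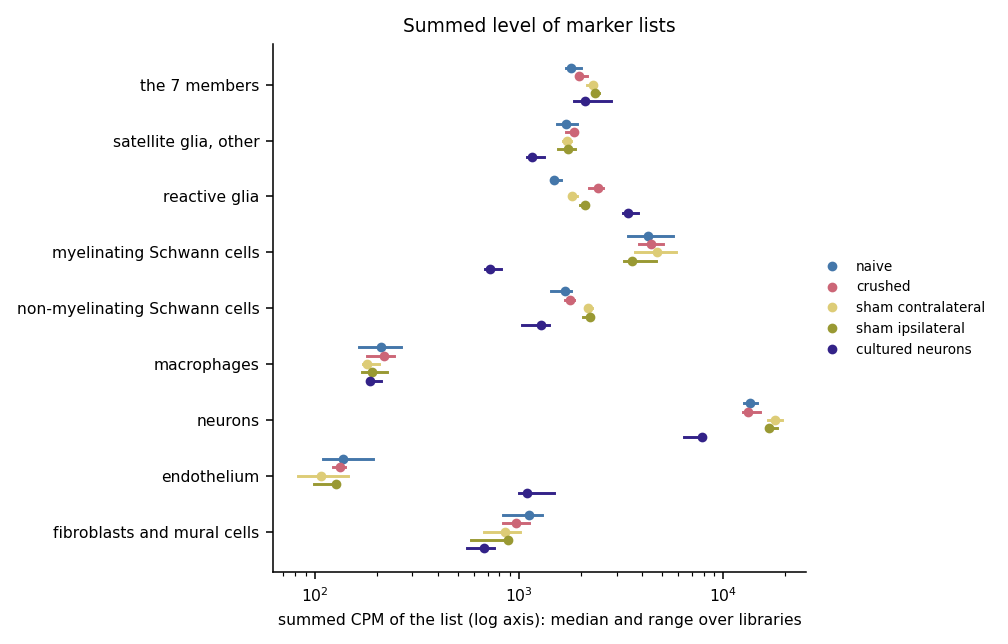
Summed CPM (log axis) of the 7 members and of 8 marker lists, as the median (point) and range (line) over the libraries of naive, crushed, sham contralateral, sham ipsilateral and cultured samples. The endothelial list is at 993 CPM or more in cultures and at most 192 CPM elsewhere, and the myelinating Schwann cell list is at most 816 CPM in cultures and at least 3274 CPM elsewhere.

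Between genotypes no member passed in any of the 5 settings. By edgeR, 0 of 7 passed in naive ganglia, where 0.00941% of all genes passed, 0 of 7 in crushed ganglia (0.00941%), 0 of 7 in cultures (0%), 0 of 7 in ipsilateral sham ganglia (0.00451%) and 0 of 7 in contralateral sham ganglia (0%). No alternative, DESeq2 included, called a member in these comparisons. An unadjusted edgeR p under 0.05 was found for 1 of 7 members in crushed ganglia, beside 579 of 21261 genes. In ipsilateral sham ganglia it was found for 1 of 7, beside 1682 of 22160 genes. In each of the other settings it was found for 0 of 7. The genes were then 1232 of 21261 in naive ganglia, 1863 of 23295 in cultures and 1160 of 22160 in contralateral sham ganglia. Fabp7 was higher in crushed ganglia labelled cKO (113 to 132 CPM) than in crushed control ganglia (98.1 to 104 CPM; log2 0.30, SE 0.08, edgeR adjusted p = 1.00). By transcripts these were 1 female and 2 male in cKO and 3 female in control. Sex is thus in part confounded with genotype here, and the 2 male cKO libraries held the higher values, 125 and 132 CPM. Sox10 was lower in sham ganglia labelled cKO, at 77.5 and 77.6 CPM against 84.9 and 111 CPM ipsilaterally (log2 -0.30, SE 0.12, edgeR adjusted p = 0.639) and at 82.2 and 78.9 CPM against 105 and 90.3 CPM contralaterally (log2 -0.29, SE 0.12, adjusted p = 0.88). Both sides come from the same sham mice, so these are not separate observations.

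Across the 10 groups the order of levels was as follows. Fabp7 was highest in the 4 sham groups (means of 179 to 200.1 CPM), then in naive (128 and 132 CPM) and crushed ganglia, and lowest in the cultures, and naive and crushed cKO overlapped as neighbours. Glul was highest in crushed ganglia (531 and 523 CPM), overlapped there by the cultures, and lowest in naive ganglia (371 and 356 CPM). The lowest place depended on the TMM factors. By library totals contralateral sham control was lowest at 364 CPM, against 386 in naive control and 393 in naive cKO. For Gfap the order was crushed (7.72 and 7.34 CPM), ipsilateral sham (3.24 and 2.81 CPM), naive and contralateral sham mixed (1.22 to 1.90 CPM, with naive control overlapping the ipsilateral control), then cultures (0.632 and 0.692 CPM). Gja1 and Sox10 were highest in the cultures, and the 8 ganglion groups of Sox10 each overlapped their neighbours in the order. Apoe had its highest means in sham ganglia (1503 to 1618 CPM), and its other 6 groups overlapped. The control cultures (904 to 1719 CPM) also overlapped the sham ganglia and held the highest single value. Cdh19 was highest in naive and crushed ganglia (61.3 to 67.6 CPM) and lower in sham ganglia and cultures (28.7 to 43.0 CPM).

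Naive ganglia and contralateral sham ganglia, which are in different deposited tables, stood apart for several members. Means in naive against contralateral sham ganglia were 55.3 and 18.0 CPM for Gja1, 64.3 and 34.9 CPM for Cdh19, 130 and 187 CPM for Fabp7, and 1120 and 1534 CPM for Apoe. Gfap (1.62 and 1.48 CPM), Sox10 (80.5 and 89.3 CPM) and Glul (363 and 410.5 CPM) were closer. Sex, surgery, deposited table and the age and tamoxifen that the labels of the sham mice do not give cannot be told apart in this difference.

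The genes most like a member over the 20 ganglion libraries were ranked by Pearson's r of log2 CPM among 12017 genes (12018 for Gfap), as a description. For Gfap they were Smim3 (r = 0.96), Rgs20 (0.96) and Gadd45a (0.96), and for Glul Foxj2 (0.95), Mapk14 (0.95) and Plpbp (0.94). For Sox10 they were Erbb3 (r = 0.88), the neuregulin receptor of the glial lineage, Sox13 (0.81) and Notch1 (0.81). The libraries share their groups and tables, and for Gfap and Glul the crushed ganglia stand above most others. For Fabp7, Gja1, Apoe and Cdh19 no r is given, because the 2 tables form separate ranges.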

How the data were processed

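Per the labels' protocols, column-purified RNA went into strand-specific poly(A) libraries. The submitters' processing notes name Trim Galore, HISAT2, featureCounts and mm10, without versions or strand setting. The authors deposited whole-number counts per gene and matching FPKM in 2 tables. The deposited FPKM divide the count by the gene's span in GENCODE M21 (GRCm38) within 0.1% for 99.4% of genes, so they are not per exon length. Of 55401 genes, 55141 (99.53%) were matched to a symbol. The members and lists were chosen with earlier results of these data known.

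Counts were tested with edgeR 4.0.16 (R 4.3.3): quasi-likelihood test, TMM, filterByExpr (minimum count 10, minimum total 15), 1 mean per group, Benjamini-Hochberg over all genes of a fit, called at adjusted p under 0.05. The naive and crushed libraries, the cultures, the sham libraries, naive with cultures, and cultures with contralateral sham ganglia were fitted separately. All 7 members passed the filter in every fit. The test recovered planted changes in simulated counts before use. The planted changes were 2-fold or more, and smaller ones, such as those of Glul and Fabp7 after crush, were not simulated.

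The members are reported in every comparison. Of 16 further lists, up to 3 genes per direction with the smallest p and the most abundant gene could be named. Alternatives were DESeq2 1.42.0, RLE factors, other filters, limma 3.58.1 on log2(FPKM + 0.1), library totals, fewer groups, sex as a covariate, blocks, and leaving out each library or sham mouse. The sides of a sham mouse come from 1 animal, per the labels, and their deviations correlated at 0.23 in control and -0.185 in cKO. Replicates are separate mice in the naive and crushed groups, per the series' design text. For cultures nothing says so beyond the numbered mouse names, and p-values measure the spread between these samples.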

Additional observations from a re-analysis of the deposited data

Results flagged for a closer look

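The Gfap change after crush exceeded the side difference after sham surgery by 1.17 on the log2 scale, and that of Glul by 0.44, each by a test of the difference itself in edgeR (adjusted p = 0.0198 and 0.00437). The comparison was added after the values had been seen. The Gfap call was lost without sham control mouse 1 (adjusted p = 0.0566) or sham cKO mouse 1 (0.0848).

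In 3 of 70 pairs of settings over the 7 members, every library labelled cKO moved one way from control in one setting and the other way in another. These are 4.29% of the members' pairs, beside 2.12% over the 17495 genes with at least 10 counts in every library (2.54%, 1.21% and 2.42% for the 3 pairs of settings in the order below), and they were not tested. Fabp7 had a cKO effect of 0.30 on the log2 scale in crushed ganglia against -0.09 in ipsilateral sham ganglia, a difference of 0.386, and against -0.13 in contralateral sham ganglia, a difference of 0.43. Gfap had a cKO effect of -0.49 in naive ganglia against 0.51 in contralateral sham ganglia, a difference of -1. The Fabp7 pairs share the crushed ganglia, where sex is in part confounded with genotype, and both sham sides come from the same mice. They are therefore not separate findings. None of these cKO effects passed the test within its setting.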

How the results depend on the processing

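Of the members' log2 differences, 46 were recomputed under alternatives: all 7 members after crush in each genotype and in culture, and those singled out in the averaged crush effect, crush against sham, the sham sides and genotype. Other members' differences and those of single list genes were not. Of 847 combinations of result and alternative, 798 kept their direction and their side of the threshold, 13 lost and 15 gained a call, and 21 changed sign. All sign changes were of members that did not pass. For Apoe they were -0.0432 after crush in control and -0.0246 in cKO (FPKM with limma), and in cKO also -0.000534 (10 counts in every library), -0.034 (sex as a covariate) and -0.0556 (without the 2 libraries of unlabelled sex). Leaving out each library in turn, the log2 difference after crush ranged over -0.019 to 0.0533 (Apoe), -0.215 to 0.0297 (Cdh19) and -0.161 to 0.0959 (Gja1) in control, and over -0.0603 to 0.0385 (Apoe), -0.0502 to 0.174 (Cdh19) and -0.0629 to 0.393 (Sox10) in cKO. For Apoe in culture it ranged over -0.161 to 0.34 in control and -0.155 to 0.0352 in cKO. The cause was not tested.

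The number of members called after crush in cKO was 1 with sex as a covariate, since Glul lost its call. For the sham sides it was 1 with DESeq2 and 1 without a filter, Gfap in both. For crush against sham it was 1 without either sham mouse numbered 1. With the mouse as a replicate block, Gfap differed between the sham sides by 1.04 (edgeR adjusted p = 0.206) and 0 members passed; crossing the cKO numbers, chosen after seeing the data, gave 0 members and 9 genes in all, against 4 with the block and 1 without. In naive and crushed ganglia and in cultures the replicate numbers pair nothing in the labels and same-numbered libraries correlated at -0.453 to 0.449, and a block on them changed no call of a member. Fabp7 in crush against sham passed with DESeq2 (-0.26) and without naive control replicate 3 or injured cKO replicate 3. Counts over all genes moved by over 1.5 times for sham sides (200 with DESeq2 and 381 without a filter, against 1), crush in cKO (1414 with sex as a covariate and 2400 without the 2 libraries of unlabelled sex, against 3962), the side by genotype test (12 with DESeq2 and 144 without a filter, against 0), crush against sham (1036 and 1198 without sham cKO or control mouse 1, against 2046), and genotype in cultures (165 and 27, against 0), ipsilateral (152 and 626, against 1) and contralateral sham ganglia (29 and 59, against 0), each with DESeq2 and without a filter. The test of genotype in the culture change gave 24 with DESeq2, against 1. Settings not named here gave moved counts of 0 to 5. Leaving out each library or sham mouse, the counts were 0 to 41 for the sham sides, 0 to 41 for the side by genotype test, 0 to 8 for the crush by genotype test, 0 to 5 for the culture by genotype test, and for genotype 1 to 2 in naive, 0 to 15 in crushed, 0 to 15 in cultured, 0 to 135 in ipsilateral and 0 to 1 in contralateral samples. The counts of 41 and 135 came without sham cKO mouse 1, and those of 8 and, in crushed ganglia, 15 without injured cKO replicate 1. Of 70 group means in CPM, 51 moved by less than 1 SD without composition factors, and the ratio over all 70 was 0.908 to 1.09. Depth limits Gfap, at 23 to 226 counts per library, more than any other member.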
